A study of Mus musculus with 10 samples.

Results

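The 10 genes described here make up the core of the mouse microRNA machinery and were chosen by name: the Argonaute genes Ago1, Ago2, Ago3 and Ago4, the processing genes Drosha, Dgcr8 and Dicer1, and the scaffold genes Tnrc6a, Tnrc6b and Tnrc6c. All 10 were found among the 31053 genes of the deposited matrices. They were measured by single-cell RNA sequencing (scRNA-seq) of E0771 tumors in WT and EC-AGO1-KO mice. E0771 is a mouse breast cancer cell line that was injected into the fourth mammary fat pad of female C57BL/6 mice 16 weeks old, and the tumors were taken at day 21. EC-AGO1-KO mice carried Ago1 flox/flox and a VE-Cadherin-Cre transgene, whose promoter belongs to Cdh5, a junction gene of endothelial cells (ECs), and WT mice were their littermates. The injected tumor cells came from 1 line and carried neither allele in either group. There were 5 WT and 5 KO libraries. Each genotype had 1 library in batch 1, and the batch 2 libraries were WT 1, WT 3, WT 4 and WT 5 and KO 1, KO 2+3, KO 4 and KO 5+6, of which KO 2+3 and KO 5+6 each pooled 2 tumors.

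MicroRNAs are made from long primary transcripts. In the nucleus, the Microprocessor, formed by the RNase Drosha and its RNA-binding partner DGCR8, cuts out a hairpin, and in the cytoplasm the RNase Dicer trims the hairpin to a duplex. An Argonaute protein keeps 1 strand of it and finds target mRNAs through the seed, and the GW182 proteins encoded by Tnrc6a, Tnrc6b and Tnrc6c bind Argonaute and recruit the enzymes that shorten and silence the target. AGO2 is the mammalian Argonaute known for cutting a fully matched target. The comparisons asked how strongly each gene was detected, whether its level differed between WT and KO tumors, and whether it differed between cell classes.

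The genes lie on several chromosomes of the mouse genome (mm10, which is GRCm38). Ago3 (chr4:126331704-126429556), Ago1 (chr4:126435012-126468583) and Ago4 (chr4:126489541-126533472) lie side by side on the minus strand of chromosome 4, with 5455 bases between Ago3 and Ago1 and 20957 bases between Ago1 and Ago4. Drosha (chr15:12824815-12935291, plus strand), Ago2 (chr15:73095844-73184935, minus strand) and Tnrc6b (chr15:80711313-80941085, plus strand) lie far apart on chromosome 15. Tnrc6a lies on chromosome 7 (chr7:123123885-123195296, plus strand), Tnrc6c on chromosome 11 (chr11:117654289-117763439, plus strand), Dicer1 on chromosome 12 (chr12:104687742-104751952, minus strand) and Dgcr8 on chromosome 16 (chr16:18253948-18289246, minus strand). Of the 10 genes, 2 hold annotated microRNAs inside their exons. Hairpins in the Dgcr8 transcript are known substrates of the Microprocessor itself, and the Dgcr8 and Tnrc6b microRNAs are printed here because their hosts are measured below. Positions are from RefSeq (GRCm38.p6) and exons from GENCODE M21. They place miR-1306 in a coding exon of Dgcr8, miR-3618 in an untranslated exon of Dgcr8, and miR-5113 in an untranslated exon of Tnrc6b. Capitals mark the seed, bases 2 to 8 of the mature strand.
mmu-miR-1306-3p: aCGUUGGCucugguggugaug
mmu-miR-1306-5p: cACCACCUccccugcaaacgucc
mmu-miR-3618-3p: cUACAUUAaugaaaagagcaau
mmu-miR-3618-5p: uGUGAUUUccaauaauugaggc
mmu-miR-5113: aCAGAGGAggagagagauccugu
None of these 5 seeds was shared with another of the 1738 mature mouse microRNAs of the RefSeq table. The libraries capture polyadenylated RNA at its 3′ end, so host transcripts were counted and the mature strands were not.

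The 3 neighbouring Argonaute genes start in CpG-rich sequence. The sequence just upstream of the RefSeq start of Ago3 (chr4:126429557-126429792), Ago1 (chr4:126468632-126468881) and Ago4 (chr4:126533473-126533708) is printed for this comparison, from RefSeq GRCm38.p6 on the minus strand, and leaves out bases inside the annotated gene. Capitals mark each CG dinucleotide.
Ago3 upstream: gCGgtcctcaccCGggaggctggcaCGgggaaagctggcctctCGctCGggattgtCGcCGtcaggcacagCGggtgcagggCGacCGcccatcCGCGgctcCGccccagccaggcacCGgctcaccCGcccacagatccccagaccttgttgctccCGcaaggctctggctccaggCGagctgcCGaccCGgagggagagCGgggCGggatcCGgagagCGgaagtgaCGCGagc
Ago1 upstream: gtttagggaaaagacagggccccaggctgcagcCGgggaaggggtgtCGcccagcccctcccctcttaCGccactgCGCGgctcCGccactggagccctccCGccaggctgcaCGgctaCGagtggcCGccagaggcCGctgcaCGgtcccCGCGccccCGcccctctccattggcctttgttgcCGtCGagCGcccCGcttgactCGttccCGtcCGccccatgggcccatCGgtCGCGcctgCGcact
Ago4 upstream: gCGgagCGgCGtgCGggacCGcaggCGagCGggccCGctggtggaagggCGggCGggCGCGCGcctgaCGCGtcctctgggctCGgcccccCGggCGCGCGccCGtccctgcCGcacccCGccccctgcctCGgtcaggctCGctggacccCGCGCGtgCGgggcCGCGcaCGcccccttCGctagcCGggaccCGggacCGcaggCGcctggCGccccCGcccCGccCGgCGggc
The printed windows held 25 CG dinucleotides for Ago3, 26 for Ago1 and 42 for Ago4. Over 32851 RefSeq promoters, the median count in the 250 bases before the start was 6. Counted in the same 250 bases, 8.56% of promoters held at least as many as Ago3, 9.59% as many as Ago1 and 0.323% as many as Ago4. Of the members, 9 of 10 matched a promoter in the table, and the counts of the others ran from 8 at 1 start of Tnrc6b to 39 at Dicer1.

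Over the 10 libraries, 65298 barcodes counted as cells, each with 200 to 7000 detected genes and no more than 10% of its UMIs from mitochondrial genes. A UMI, or unique molecular identifier, stands for 1 captured RNA molecule. The 2 batch 1 libraries stood apart from the other 8: they held 968 and 1194 cells with medians of 3862 and 4049 UMIs, against 6212 to 10190 cells with medians of 595 to 1142 UMIs in batch 2. Actb took 1.99% and 2.27% of UMIs in batch 1 and 8.77% to 17.0% in batch 2, so levels are given as CPM, the UMIs of a gene per 1000000 UMIs of the sum with Actb left out. Libraries shared at most 0.503% of their barcodes. Cells were clustered and named by lineage markers, which gave 55542 tumor-like, 2179 macrophage-like, 1370 T-like, 559 fibroblast-like and 212 endothelial-like cells. Another 1362 cells fell in other named classes, and 4074 stayed unnamed. Unnamed clusters of 1662 and 1430 cells had the macrophage markers Adgre1 and Lyz2 among their leading genes, so the macrophage-like class is not complete. Single defining markers differed strongly between classes. Pooled Csf1r was 229 CPM in macrophage-like and 1.39 CPM in tumor-like cells. Cd3e was 245 CPM in T-like and 0.241 CPM in tumor-like cells, and Cdh5 843 CPM in endothelial-like and 0.853 CPM in tumor-like cells. The endothelial-like cells also carried the tumor list at a summed 10284 CPM, to which Cdh13 gave 2362 CPM and Pvt1 3005 CPM. Their own endothelial list summed to 4133 CPM. Fibroblast-like cells carried the tumor list at 11208 CPM, beside 18292 CPM in tumor-like cells. From near-empty barcodes of at most 50 UMIs, whose RNA is free in the suspension, the share of free RNA was bounded at 4.04% to 8.76% in tumor-like cells. The bounds were 0% to 22.2% in macrophage-like, 0% to 35.0% in T-like, 0% to 28.5% in fibroblast-like and 0% to 85.0% in endothelial-like cells. In sums over all cells of a library, fewer cells of a class and less RNA per cell cannot be told apart.

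Ago1 was the least detected of the 10 genes. It gave 372 UMIs over all libraries, or 6.04 CPM with a 95% Poisson interval of 5.44 to 6.69. This lay above 64.9% of the 27391 genes with at least 1 UMI. Ago4 gave 704 UMIs (11.4 CPM), Ago3 5169 UMIs (83.9 CPM) and Ago2 7658 UMIs (124 CPM). Divided by the length of the annotated exons, the pooled level per kilobase was 8.86 for Ago2, 5.07 for Ago3, 1.65 for Ago4 and 0.744 for Ago1, so the same order held per length. Among the processing genes, the level per exon kilobase was 8.25 for Drosha, 3.67 for Dgcr8 and 1.86 for Dicer1. Among the GW182 genes it was 10.3 for Tnrc6c, 8.56 for Tnrc6b and 3.95 for Tnrc6a. Tnrc6b gave the most UMIs of all 10, 12478, and its exons are also the longest, at 23.7 kb. With a 3′ assay a long gene does not gain reads in proportion to its length, so these levels per length rank genes only roughly.

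The level of Ago1 was similar in every library. In WT tumors it was 7.21 CPM in batch 1 and 5.74, 4.97, 5.35 and 5.40 CPM in WT 1, WT 3, WT 4 and WT 5. In KO tumors it was 6.60 CPM in batch 1 and 5.48, 7.96, 4.97 and 6.65 CPM in KO 1, KO 2+3, KO 4 and KO 5+6. The pooled library KO 2+3 was the highest and the 2 groups overlapped. Ago2 was the steadiest abundant member across batches, at 113 and 113 CPM in batch 1 and 83.9 to 154 CPM in batch 2, and WT 4 gave the lowest value. Tnrc6a, by contrast, was at 76.2 and 84.2 CPM in batch 1 and at 37.4 to 44.6 CPM in every batch 2 library.

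**Figure D1:**
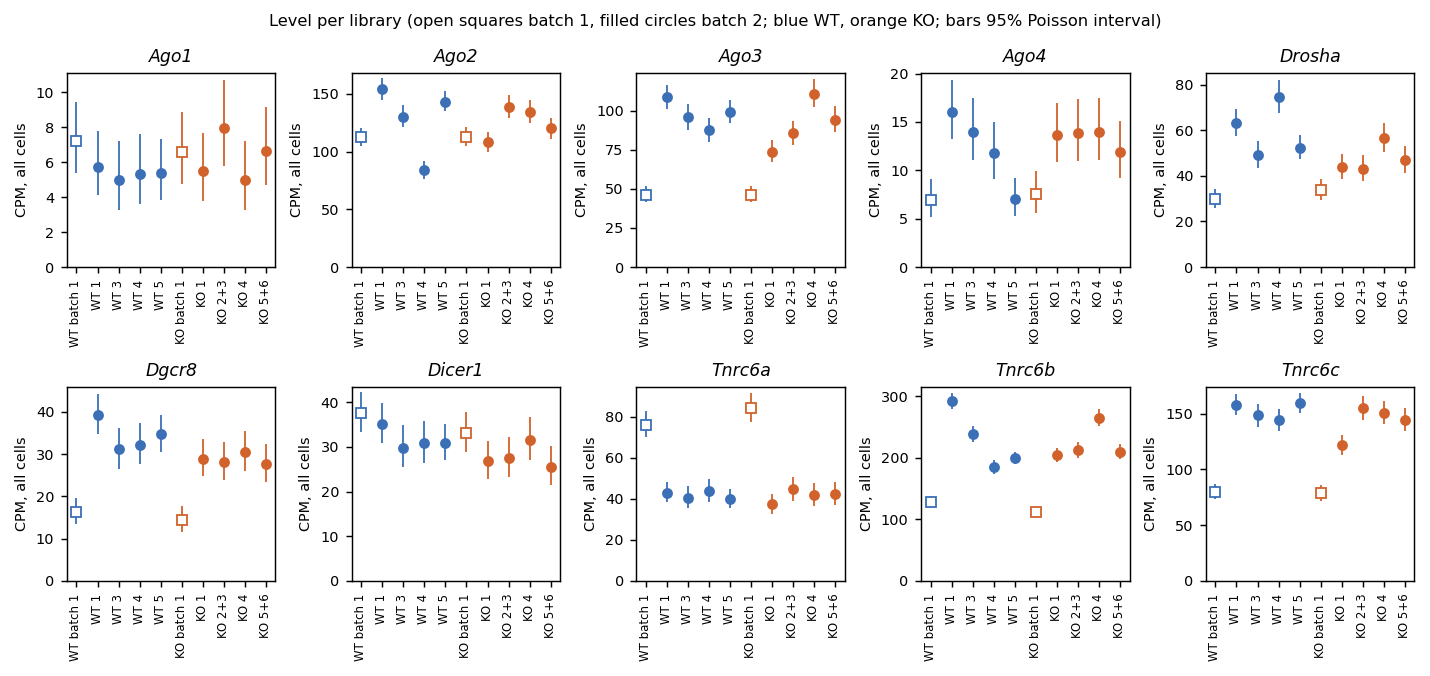
CPM of each of the 10 genes in each library over all kept cells, with 95% Poisson intervals, WT in blue and KO in orange. Open squares mark batch 1: Tnrc6a is highest there, at 76.2 and 84.2 CPM, while Ago3, Drosha, Dgcr8, Tnrc6b and Tnrc6c are lowest there.

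Free RNA carried the members too, and Ago1 was more frequent in it than in cells. In batch 2 the pooled Ago1 level was 10.6 CPM in near-empty barcodes and 5.79 CPM in cells, and near-empty barcodes were higher in 7 of 8 libraries. Ago4, the other scarce Argonaute gene, was at 17.6 CPM in near-empty barcodes and 12.7 CPM in cells of batch 2, again higher in 7 of 8 libraries. The abundant members went the other way: Ago2 was at 72.7 CPM in near-empty barcodes and 128 CPM in cells, and Tnrc6b at 165 and 226 CPM. In batch 1 all 10 members were lower in near-empty barcodes than in cells, with Ago1 at 4.26 against 6.92 CPM. The part of free RNA in the Ago1 and Ago4 levels of the rarer cell classes was not measured directly. In the 20-UMI fit described below, macrophage-like cells were compared with tumor-like cells before and after free RNA was subtracted. On the log2 scale Ago1 was 0.72 higher before and 1.03 after, and Ago4 0.68 before and 1.00 after.

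None of the 10 genes differed between WT and KO tumors when all cells of a library were summed. The test was edgeR's quasi-likelihood test with batch as a covariate and Benjamini-Hochberg adjustment over all 12450 genes tested, of which 0.00% were called at an adjusted p under 0.05. In the same fit 1102 genes had an unadjusted p under 0.05, and DESeq2 called 2 genes, no member among them. Ago1, the gene deleted in ECs, was 0.08 higher in KO on the log2 scale (SE 0.19, adjusted p = 0.947 in edgeR). Without the 2 pooled KO libraries this difference was -0.13 (SE 0.22), and without KO 2+3 alone it was -0.03 (SE 0.19). The sources used here do not give the deleted exons, and 3′ tags outside them would still be counted, so the Ago1 level does not check the knockout. The other Argonaute genes lay at -0.08 (SE 0.14) for Ago2, -0.15 (SE 0.12) for Ago3 and 0.07 (SE 0.20) for Ago4, each within 2 SE.

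The 3 processing genes had the largest differences, all toward lower values in KO, and none passed the test. Dgcr8 was at -0.30 (SE 0.11, unadjusted p = 0.0162 and adjusted p = 0.486 in edgeR). In batch 2 it measured 39.3, 31.1, 32.3 and 34.7 CPM in WT 1, WT 3, WT 4 and WT 5 and 28.9, 28.1, 30.6 and 27.7 CPM in KO 1, KO 2+3, KO 4 and KO 5+6. Every batch 2 KO library thus lay below every batch 2 WT library, and in batch 1 WT was at 16.4 and KO at 14.4 CPM. Dgcr8 alone among the 10 members had batch 2 groups that did not overlap, as did 4.41% of all tested genes. Drosha was at -0.30 (SE 0.15, adjusted p = 0.577) and Dicer1 at -0.25 (SE 0.11, adjusted p = 0.554). The GW182 genes lay at -0.04 for Tnrc6a, -0.13 for Tnrc6b and -0.14 for Tnrc6c, with SE from 0.10 to 0.13. The median of the 10 members was -0.14, beside -0.0025 over all tested genes.

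Within cell classes the genotypes did not separate for any member that could be tested. In tumor-like cells edgeR called 0 of 11603 genes (676 at an unadjusted p under 0.05, and 1 called by DESeq2), and the members lay between -0.26 for Drosha and 0.09 for Ago4. In T-like cells only Tnrc6b had enough UMIs for the test, at 0.21 (SE 0.27, adjusted p = 0.989 in edgeR). In macrophage-like, fibroblast-like and endothelial-like cells no member had enough UMIs, and with no limit on low counts none was called in any class. The difference between genotypes was also compared between macrophage-like and tumor-like cells, and edgeR called 0 of 11675 genes (296 at an unadjusted p under 0.05), with members from -0.48 for Ago4 to 0.63 for Ago2 (SE 0.69 and 0.43).

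In the endothelial-like cells, where Cre acts, Ago1 could not be compared. These 212 cells held 150727 UMIs, 62573 in WT and 88154 in KO, and none of them was an Ago1 UMI. A count of 0 allows a level of up to 47.9 CPM in WT and 34.0 CPM in KO. At the Ago1 level of tumor-like cells, 0.353 UMIs would have been counted in WT and 0.536 in KO endothelial-like cells. Neither the presence of Ago1 in WT endothelial-like cells nor its loss in KO was detectable at this depth. The remaining Argonaute genes were seen there at 10 UMIs for Ago2, 14 for Ago3 and 3 for Ago4, and Dgcr8, like Ago1, gave 0 UMIs where 4.36 would have been counted at its tumor-like level.

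The mix of Argonaute genes did not differ between WT and KO either. Ago2 made up 54.6% ± 7.33 (SD, n = 5) of the UMIs of Ago1 to Ago4 in WT libraries, against 55.6% ± 5.75 (SD, n = 5) for KO, a share that needs no scaling between libraries. The difference of 0.923 percentage points gave p = 0.786 when genotypes were permuted within batches (exact test, two-sided), which has 140 arrangements and allows a smallest p of 0.0143. It turned to -1.59 points without WT 4 and to -1.46 points without the batch 1 KO library, and without the batch 1 WT library it was 3.53 points. Ago2 held 65.1% and 65.1% of Argonaute UMIs in the WT and KO libraries of batch 1, and 44.6% to 56.4% in batch 2, so the batches did not overlap in this share.

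Between the batches most members differed, and so did most genes. In all cells edgeR called 8 of 10 members at an adjusted p under 0.05, and 76.7% of all 14181 genes tested, 36.0% higher and 40.7% lower in batch 2. The share of members called was thus close to that of all genes. The batches differ in sequencer, in depth per cell and in the number of cells, which cannot be told apart. Higher in batch 2 on the log2 scale were Dgcr8 (0.88, SE 0.16), Ago3 (0.86, SE 0.16), Tnrc6b (0.75, SE 0.17), Tnrc6c (0.74, SE 0.13), Ago4 (0.66, SE 0.26) and Drosha (0.58, SE 0.20). Lower were Tnrc6a (-1.10, SE 0.13, adjusted p = 6.9e-07) and Dicer1 (-0.41, SE 0.14). Ago2 (0.00, SE 0.17) and Ago1 (-0.41, SE 0.23, adjusted p = 0.104 in edgeR) did not pass. In 6 of 10 members the levels of the 2 batches did not overlap, as in 73.8% of tested genes. Ago4 and Dicer1 lost their calls without either batch 1 library, with adjusted p values from 0.122 to 0.146. Drosha lost its call without the batch 1 WT library (0.37, adjusted p = 0.246), and Dicer1 also without KO 1 (-0.31, adjusted p = 0.0684) or KO 5+6 (-0.30, adjusted p = 0.0801). The Dicer1 call was also lost with DESeq2 (-0.27, adjusted p = 0.0995), with library totals in place of TMM scaling (-0.25, adjusted p = 0.119 in edgeR) and with at least 500 genes per cell (-0.20, adjusted p = 0.191 in edgeR). The same 8 members were called in tumor-like cells alone, beside 76.0% of 13105 genes. There Ago4 again lost its call without either batch 1 library (0.71 and 0.64), and Drosha without the batch 1 WT library (0.15) or KO 4 (0.43).

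The 3 GW182 genes went in opposite directions between batches, and Tnrc6a lay far below the median of its quartile of gene span. Over all tested genes the batch difference rose with the span of the gene on the chromosome: its median was -1.65, -0.68, 0.21 and 1.10 in the 4 quartiles of span from short to long, and Spearman's rho across 14174 genes, which are not independent replicates, was 0.567. Tnrc6a, Tnrc6b and Tnrc6c all fall in the longest quartile, with spans of 71.4, 230 and 109 kb. Tnrc6a lies at the lower edge of this quartile, which starts at 70.6 kb, and the next shorter quartile had a median of 0.21. The distance of Tnrc6a from its median therefore depends on where the quartiles are cut. Tnrc6b and Tnrc6c lay 0.35 and 0.36 below the median of the longest quartile, while Tnrc6a lay 2.20 below it. Ago2, with a span of 89.1 kb, lay 1.10 below it, and Ago3, of 97.9 kb, lay 0.24 below it. Tnrc6a took 28.6% of the UMIs of the 3 GW182 genes in batch 1 and 10.0% in batch 2.

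**Figure D2:**
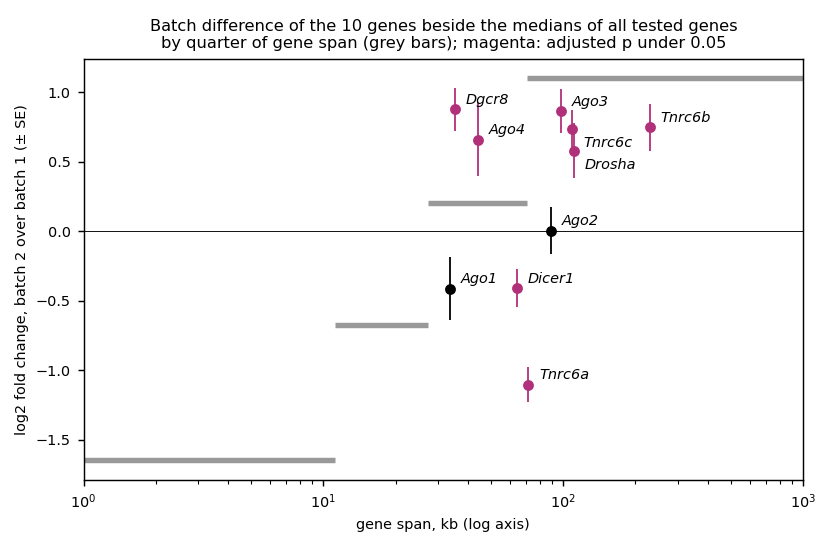
Log2 fold change of batch 2 over batch 1 in all cells against gene span on a log axis, with SE bars for the 10 genes and grey bars for the medians of all tested genes in each quartile of span. Tnrc6a, at -1.10, lies farthest below its grey bar at 1.10, and Ago2, at 0.00, is the next.

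Across cell classes the Argonaute genes differed in proportion. The pooled Ago1 level was 9.98 CPM in macrophage-like cells (24 UMIs, 95% interval 6.39 to 14.8), 9.64 in fibroblast-like (3 UMIs), 9.36 in T-like (6 UMIs) and 5.84 in tumor-like cells (315 UMIs, 5.22 to 6.53). The fibroblast-like and T-like intervals of 1.99 to 28.2 and 3.43 to 20.4 CPM overlapped all the others, so that no order can be read among the non-tumor classes. These pooled levels also mix class with batch. The macrophage-like sums held 903076 and 1054486 UMIs without Actb in batch 1, and 8946 to 127781 in batch 2. Tumor-like sums were of similar size in both batches. The intervals do not cover this difference. Ago3 was higher in macrophage-like than in tumor-like cells of the same library in 10 of 10 libraries. Its macrophage-like level was 54.3, 218, 249, 112 and 111 CPM in WT batch 1, WT 1, WT 3, WT 4 and WT 5, and 62.6, 206, 157, 169 and 193 CPM in KO batch 1, KO 1, KO 2+3, KO 4 and KO 5+6. In tumor-like cells it ran from 42.4 to 44.6 CPM in batch 1 and from 71.0 to 110 CPM in batch 2. Within each batch the macrophage-like values all lay above the tumor-like ones, and the highest 3 came from libraries with 8 to 11 macrophage-like Ago3 UMIs. The WT 4 value rests on 1 UMI. It and the WT 5 value lay only just above the highest tumor-like value, so the separation in batch 2 is fragile. In the fit over more genes described below, 28.1% of all genes were called higher in macrophage-like cells. That is a share of calls, and the share of all genes higher in 10 of 10 libraries was not computed.

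**Figure D3:**
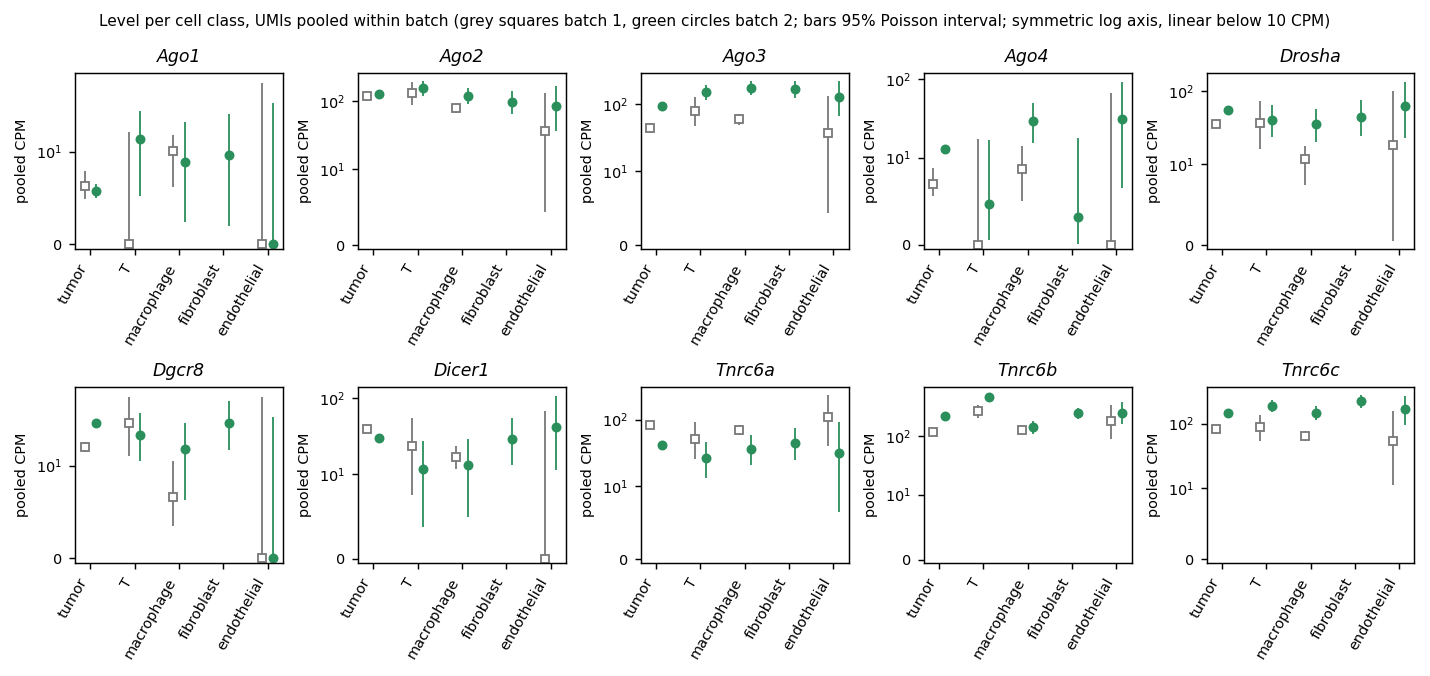
Pooled CPM of the 10 genes in each cell class, batch 1 as grey squares and batch 2 as green circles, with 95% Poisson intervals on a symmetric log axis that is linear below 10 CPM. Tnrc6b is highest in T-like cells in both batches, at 264 and 454 CPM, and endothelial-like intervals are the widest.

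Ago2 held a smaller part of the Argonaute UMIs in macrophage-like cells than in the tumor-like cells beside them. Its share was 34.2% ± 15.7 (SD, n = 10) in macrophage-like and 56.0% ± 7.13 in tumor-like cells, a difference of -21.8 percentage points that was lower in 10 of 10 libraries (exact two-sided sign-flip test, p = 0.00195, the smallest it can give). In WT batch 1, WT 1, WT 3, WT 4 and WT 5 the macrophage-like share was 47.2%, 16.7%, 33.3%, 0% and 39.1%. In KO batch 1, KO 1, KO 2+3, KO 4 and KO 5+6 it was 52.0%, 43.8%, 39.5%, 27.8% and 42.9%. The WT 4 value rests on 1 Argonaute UMI, and those of the other batch 2 libraries on 12 to 38, so single values are imprecise. Without libraries under 10 Argonaute UMIs the difference was -19.3 points, and within batch 2 it was -22.8 points (exact p = 0.00781). Free RNA of batch 2 had an Ago2 share of 42.6%, between the pooled 53.5% of tumor-like and 36.1% of macrophage-like cells, and free RNA of batch 1 had 66.4%, beside 67.5% and 50%. The macrophage-like share thus lay below both in each batch. Shares in fibroblast-like and endothelial-like cells were not tested. Ago3 also exceeded Ago2 in fibroblast-like cells of batch 2 and, on few UMIs, in endothelial-like cells. A low Ago2 share was thus not seen in macrophage-like cells alone. In T-like cells the Ago2 share was 53.5% ± 10.9, -2.48 points from tumor-like cells (exact p = 0.471). These shares and their tests, 4 in all, were chosen after the data had been seen, and the adjusted p over the 4 was 0.00781 for Ago2 in macrophage-like cells.

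**Figure D4:**
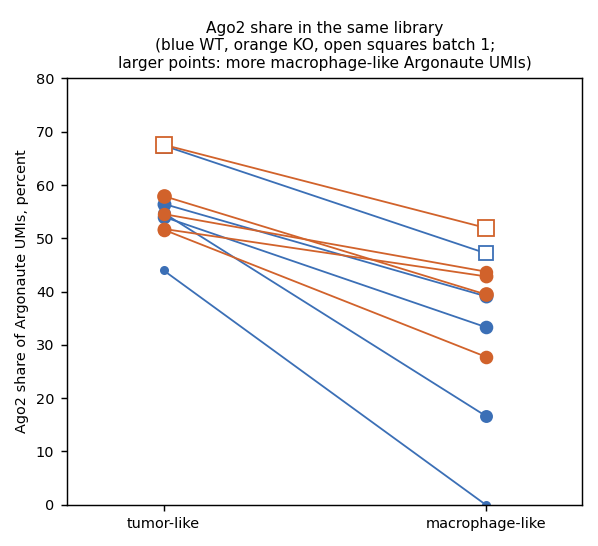
Ago2 share of Argonaute UMIs in tumor-like and macrophage-like cells of the same library, WT in blue, KO in orange and batch 1 as open squares, with larger points for more macrophage-like Argonaute UMIs. All 10 lines fall, on average from 56.0% to 34.2%, and the line that reaches 0% is WT 4, with 1 UMI.

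**Figure D5:**
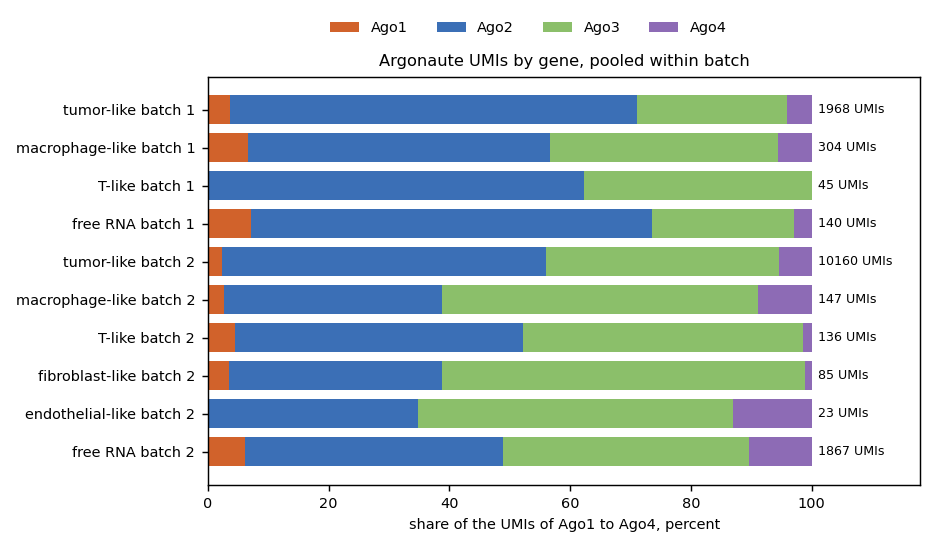
Shares of the UMIs of Ago1 to Ago4 by cell class and batch, and in free RNA, with the UMIs behind each bar at its right. Ago2 holds 67.5% in tumor-like and 50% in macrophage-like cells of batch 1, and 53.5% and 36.1% in batch 2, where Ago3 takes 52.4% in macrophage-like cells.

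Tnrc6b was the only member that passed the limit on low counts in the test between classes, and it was higher in T-like than in tumor-like cells. This limit is set on CPM and must be met in as many sums as the smallest class holds. The T-like values, where Tnrc6b is high, were enough to meet it, so the call is not independent of the limit. In T-like cells it measured 235, 103, 523, 798 and 349 CPM in WT batch 1, WT 1, WT 3, WT 4 and WT 5 and 285, 352, 468, 545 and 517 CPM in KO batch 1, KO 1, KO 2+3, KO 4 and KO 5+6. Tumor-like cells were at 121, 293, 235, 181 and 194 CPM in the same WT libraries and at 112, 199, 200, 258 and 205 CPM in the KO libraries. The T-like value was the higher of the pair in 9 of 10 libraries, WT 1 with 3 UMIs being the exception. On the log2 scale the difference was 0.82 (SE 0.17, adjusted p = 1.1e-05 in edgeR with library as a block), among 1830 genes of which 77.8% were called, 32.4% higher and 45.4% lower. Free RNA held Tnrc6b at 165 CPM in batch 2, below the T-like level of 454 CPM. With no limit on low counts the difference was 0.27 and not called (adjusted p = 0.294 in edgeR). The T-like share of Tnrc6b among the UMIs of the 3 GW182 genes, 65.1% ± 12.2 (SD, n = 10) against 51.4% ± 6.28, was 13.7 points higher (9 of 10 libraries, exact two-sided sign-flip p = 0.0234, 0.0469 adjusted over the 4 share tests), 18.1 points higher without WT 1 and 11.2 points higher in batch 2 alone, where the call was lost (exact p = 0.0859). In macrophage-like cells the same share was -5.03 points from tumor-like cells (exact p = 0.244). Tnrc6b itself was -0.26 there (SE 0.17, adjusted p = 0.149 in edgeR, beside 82.1% of genes called, 36.4% higher and 45.6% lower), and lay at 0.01 without WT 4. It was called lower with no limit on low counts (-0.88, adjusted p = 8.6e-06), in batch 2 alone (-0.49, adjusted p = 0.0299) and without the batch 1 WT library (-0.42, adjusted p = 0.0307), all in edgeR. In fibroblast-like cells it was at 0.27 (SE 0.23, adjusted p = 0.338, 49.2% of genes called) and in endothelial-like cells at 0.22 (SE 0.36, adjusted p = 0.642, 39.1% of genes called).

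To test all 10 members, the limit was lowered after the data had been seen to genes with at least 20 UMIs over the non-tumor classes, which kept 10331 genes. The median of all genes then lay at -0.52 in T-like and -0.26 in macrophage-like cells, and at -0.05 and -0.19 with library totals in place of TMM scaling, so values are read relative to these medians. In macrophage-like cells the 3 processing genes were called lower: Dgcr8 (-1.31, SE 0.35), Dicer1 (-1.20, SE 0.31) and Drosha (-1.16, SE 0.29), while 38.4% of all genes were called lower and 28.1% higher. They were lower under all 4 scalings and limits tried and called in 3 of them, and DESeq2 gave adjusted p values of 0.0713, 0.0930 and 0.0775. Dgcr8 had 20 UMIs in these cells and Dicer1 and Drosha 39 each, and none of the 3 was called within batch 2 alone (Dgcr8 -1.03, Dicer1 -1.15 and Drosha -0.50). Dicer1 was below the tumor-like level in 10 of 10 libraries and Dgcr8 in 9. The batch 2 macrophage-like sums held only 8946 to 127781 UMIs without Actb, and a count of 0 was taken as below. This tally over libraries therefore adds little for genes so scarce. Ago3 was called higher (0.52, SE 0.20, adjusted p = 0.0145 in edgeR), but not without WT 1, WT 3 or KO 2+3 (0.41, 0.35 and 0.37), nor with no limit (0.20). Tnrc6b (-0.57) and Ago2 (-0.51) were called lower, but DESeq2 put them at -0.08 (adjusted p = 0.769) and -0.0041 (adjusted p = 0.988). Both calls were also lost with library totals (-0.34 and -0.36), with free RNA subtracted (-0.48 and -0.34) and without KO 4 (-0.39 and -0.38). Tnrc6b further lost its call without KO 5+6 (-0.43), and Ago2 in batch 2 alone (-0.16, adjusted p = 0.597 in edgeR), at clustering resolution 0.5 (-0.32), without the batch 1 WT library (-0.21) and without WT 5 (-0.40). Ago1 (0.72, SE 0.42) and Ago4 (0.68, SE 0.33) did not pass. Ago1 was called higher with DESeq2 (1.20, adjusted p = 0.0451) and with free RNA subtracted (1.03, adjusted p = 0.0472 in edgeR). Ago4 was called higher with DESeq2 (1.24, adjusted p = 0.00675), with free RNA subtracted (1.00), with library totals (0.78), at clustering resolutions 0.5 and 2 (0.81 and 0.92), and without the batch 1 WT library (1.02), KO 1 (0.88) or KO 5+6 (0.83). With no limit both differences were smaller, 0.36 for Ago1 and 0.34 for Ago4, and not called. Tnrc6a (-0.32) and Tnrc6c (-0.36) did not pass, but were called lower with no limit (-0.66 and -0.68), without WT 1 (-0.55 and -0.44) and without KO 2+3 (-0.58 and -0.51), and Tnrc6c also without WT 3 (-0.41). DESeq2 turned both, to 0.07 and 0.18.

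In T-like cells, with 58.3% of genes called at the same limit, 18.7% higher and 39.5% lower, Dicer1 (-1.55, SE 0.43), Tnrc6a (-1.19, SE 0.32) and Ago4 (-2.24, SE 0.74) were called lower and Tnrc6b higher (0.48, SE 0.19). The Dicer1 value rests on 10 UMIs, the Tnrc6a value on 22 and the Ago4 value on 2. Ago4 lost its call without KO 2+3 (-1.67, adjusted p = 0.0666) and in DESeq2, as did Dicer1 in DESeq2 (-1.12, adjusted p = 0.0685). Tnrc6a lost its call with library totals (-0.72, adjusted p = 0.0513 in edgeR), with DESeq2 (-0.70, adjusted p = 0.134) and in batch 2 alone (-0.84, adjusted p = 0.0987 in edgeR). Ago3 did not pass (0.22, adjusted p = 0.412 in edgeR), but was called higher with library totals (0.74), with DESeq2 (0.78) and in batch 2 alone (0.56, adjusted p = 0.0419 in edgeR). Drosha did not pass either (-0.68, adjusted p = 0.0540 in edgeR), but was called lower with no limit (-0.91), without the batch 1 KO library (-0.83) and without WT 5 (-0.74). Ago2 and Tnrc6c changed sign between scalings, from -0.28 to 0.23 and from -0.21 to 0.31, and have no direction here. In fibroblast-like cells the pooled batch 2 levels were 164 CPM for Ago3, 96.4 for Ago2, 225 for Tnrc6c and 244 for Tnrc6b, and only Ago3 of the Argonaute genes exceeded its tumor-like level in 7 of 8 libraries. The 20-UMI fit called 3828 of 10331 genes in fibroblast-like cells, Ago2 (-0.93, SE 0.28) and Ago4 (-2.46, SE 0.98) among those lower. Each was called in 1 of the 4 scalings and limits. Ago3 and Tnrc6c were called higher there in 2 of the 4, but not in this fit. In endothelial-like cells it called 3363 genes, with Ago2 (-1.80, SE 0.47) and Dgcr8 lower, each in 2 of the 4. Dgcr8 had 0 UMIs there, so no fold is given.

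Other genes of the pathway were taken from a list of 67 cofactors of processing, loading, decay and transport. Between WT and KO 0 of the 65 tested were called in all cells, and the 3 with most UMIs, the HSP90 cochaperone gene Ptges3, the RNA-binding protein gene Hnrnpa1 and the deadenylase gene Pan3, lay at -0.04, -0.13 and -0.18. Between batches 34 of 65 were higher and 24 lower in batch 2, beside 36.0% and 40.7% of all genes tested. Trim71, a ubiquitin ligase and microRNA target, was at 3.19, Khsrp at 2.55, Pan3 at 2.24, Pnldc1 at 2.24 and Snd1 at 2.16. Among the lower genes were the transport GTPase gene Ran at -2.48, Cnot3 of the CCR4-NOT deadenylase at -2.39, the Dicer partner Prkra at -2.13, and the chaperone genes Hspa8 and Hsp90ab1 at -2.11 each. Against tumor-like cells, T-like cells had 5 of 24 tested list genes higher and 16 lower, beside 32.4% and 45.4% of all genes. The limit on low counts let in a gene that was high in tumor-like cells alone. The tallies of lower list genes in each class are therefore not independent of this limit, which also held for all genes tested. The uridylyltransferase gene Zcchc11 (2.21), the Drosha cofactor Ddx5 (1.27) and the deadenylase gene Cnot6l (1.11) were among the higher. Trim71 (-4.01), Ptges3 (-1.28), Hnrnpa1 (-1.28), Hsp90ab1 (-1.23), Ran (-1.18) and Pabpc1 (-1.14) were among the lower. In macrophage-like cells 2 were higher and 18 lower, beside 36.4% and 45.6% of all genes. The lower ones were led by Trim71 (-4.28), Hnrnpa1 (-1.77), Ran (-1.76), Cnot9 (-1.64), Ptges3 (-1.60), Hsp90ab1 (-1.59), Ipo8 (-1.51) and Hsp90aa1 (-1.32). Fibroblast-like cells had 0 higher and 15 lower, beside 24.6% and 24.6% of all genes. Endothelial-like cells had 0 higher and 11 lower, beside 18.7% and 20.4%. The list's median was -0.66 in T-like and -0.82 in macrophage-like cells, beside -0.23 and -0.17 over all 1830 genes. Of the transcripts listed as microRNA hosts, Mir17hg was higher (2.11) and Mir142hg lower (-2.92) in batch 2. Mir155hg was 2.93 higher in T-like cells and 1.09 higher in macrophage-like cells. Mirt1, a long noncoding RNA that was also in the list, was lower in batch 2 (-1.64). Whether Mirt1 hosts a microRNA was not checked.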

How the data were processed

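The deposited files are unfiltered 10x Genomics count matrices, 1 per library (3′ v3.1 chemistry), which the authors made with Cell Ranger 7.1.0 on mm10 per the labels, and their values are raw UMI counts per gene and barcode. Whether reads in introns were counted is not given in the sources used here. The limits of the study were applied (200 to 7000 genes and no more than 10% of UMIs from mitochondrial genes per barcode), and doublets were not removed. Cells were clustered with scanpy 1.11.5 and leidenalg 0.10.2 (2000 variable genes, 30 principal components, resolution 1), and a cluster was named from at least 3 of its fixed markers. Classes rebuilt in this way may differ from those of the study. UMIs were summed per library, and per library and class where at least 10 cells were present, and Actb was left out of totals.

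Sums were tested with edgeR 4.0.16 (R 4.3.3; quasi-likelihood test, TMM, filterByExpr), with batch, genotype or library as a term, and DESeq2 1.42.0 as an alternative. Genes were called at an adjusted p under 0.05. Cells were not treated as replicates, as the study's Wilcoxon tests do, and the p-values measure the spread between libraries. Steps were tested on simulated data. Poisson intervals (CPM) and Wilson intervals (shares) cover 95% counting error only. A count of 0 was given a floor of 3 counts. Depth was 6064580 to 8593422 UMIs per library in kept cells, and rare classes held far fewer, which limits the values in them. The named genes are the 10 members, up to 10 pathway genes called in each comparison by size of change (the 3 with most UMIs where none was), and up to 5 called host transcripts. Of 17 transcripts listed as hosts, 9 were found in the matrices. The members and lists were chosen with earlier results of these data known. Alternatives were the tool, the limit on low counts, batch 2 alone, leaving out each library or the pooled libraries, a block of replicate number, mitochondrial limits of 20%, at least 500 genes per cell, Actb kept, resolutions 0.5 and 2, and subtracted free RNA. A limit of 20 UMIs, no TMM scaling, and the class tests of shares were added after the data had been seen. Lengths and exon annotation come from GENCODE M21 and sequences from RefSeq (GRCm38.p6).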

Additional observations from a re-analysis of the deposited data

Results flagged for a closer look

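Within groups of 4 or 5 libraries, 5 of the 44 groups of levels checked held 1 library far from the others by Dixon's criterion at 95%, which chance gives in about 5% of groups. Of these, 4 were batch 1 libraries set among batch 2 libraries of the same genotype. Tnrc6a was at 76.2 CPM in the batch 1 WT library, beside 39.8 to 43.7 CPM in the other WT libraries, and at 84.2 CPM in the batch 1 KO library, beside 37.4 to 44.6 CPM. Tnrc6c was at 79.7 CPM in the batch 1 WT library, beside 144 to 159 CPM. Dgcr8 was at 14.4 CPM in the batch 1 KO library, beside 27.7 to 30.6 CPM. Within batch 2, Tnrc6b was at 264 CPM in KO 4, beside 204 to 212 CPM in the other KO libraries.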

How the results depend on the processing

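No member was called between WT and KO under any alternative, and the replicate block called 0 genes in every such comparison. Same-numbered libraries, which share only a number, had correlations of -0.31 (WT 1 and KO 1) and -0.39 (WT 4 and KO 4) over 10118 genes. Genes called between WT and KO were 2 in all cells and 1 in tumor-like cells with DESeq2, and 242 and 39 with no limit on low counts. In macrophage-like cells they were 14 with no limit and 3 in batch 2 alone, and in fibroblast-like cells 2 with DESeq2 and 2 with no limit. Leaving out 1 library gave 0 to 1 genes in all cells, 0 to 2 in macrophage-like, fibroblast-like and endothelial-like cells, and 0 to 4 for the genotype difference between macrophage-like and tumor-like cells. Against tumor-like cells, no limit gave 8003 (T-like), 10196 (macrophage-like), 3071 (fibroblast-like) and 2402 (endothelial-like) called genes, and the limit of 20 UMIs gave 6018, 6869, 3828 and 3363, where more genes were tested. The Tnrc6b share difference of T-like cells was 11.2 points (exact p = 0.0859) in batch 2 alone, and the Ago2 share difference of KO ran from -1.59 (without WT 4) to 2.08 points (without KO 4) when 1 unpooled batch 2 library was left out, and was -1.46 points without the batch 1 KO library and 3.53 points without the batch 1 WT library.

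Signs turned in the cases below, none of them called in the reported fit or in the fit that turned the sign, and the cause was not tested; ranges are over fits without 1 library. Between WT and KO in all cells, Ago1 was -0.13 without the pooled KO libraries and -0.032 without KO 2+3, and Ago4 ran from -0.11 to 0.17. In tumor-like cells Ago1 was -0.17 and -0.069 in these settings, Ago2 ran from -0.19 to 0.0075, Ago4 from -0.10 to 0.23 and Tnrc6a from -0.062 to 0.00070 (unpooled batch 2 libraries left out). In T-like cells Tnrc6b ran from -0.049 to 0.41. Ago2 between batches was -0.038 with no limit and -0.011 without KO 2+3, and ran from -0.015 to 0.13, while in tumor-like cells it was 0.023 with DESeq2 and 0.10 without TMM and ran from -0.085 to 0.041 without 1 unpooled batch 2 library.

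Beside the T-like values at 20 UMIs, Ago1 was -0.12 with no limit and -0.29 without KO 2+3, and ran from -0.47 to 0.23 without 1 unpooled batch 2 library. Ago2 was 0.23 without TMM, 0.25 with DESeq2, 0.12 in batch 2 and 0.031 without the batch 1 WT library (-0.31 to -0.20 without 1 unpooled batch 2 library), and Tnrc6c 0.31, 0.34, 0.21 and 0.027 (-0.23 to -0.12). In macrophage-like cells DESeq2 gave 0.066 for Tnrc6a and 0.18 for Tnrc6c, and Tnrc6b at the stricter limit ran from -0.36 to 0.0082 without 1 unpooled batch 2 library; with no limit these 3 were called lower. With no limit Tnrc6b was -0.18 in fibroblast-like and -0.55 in endothelial-like cells, where it ran from -0.12 to 0.36. In the genotype difference between macrophage-like and tumor-like cells, DESeq2 gave -0.017 for Ago1 and -0.19 for Dgcr8. Without the batch 1 WT library Drosha was -0.13, Dgcr8 -0.24 and Tnrc6b 0.65, without the batch 1 KO library Ago1 was -0.11 and Dgcr8 -0.43, and without KO 5+6 Dgcr8 was -0.026 and Tnrc6b 0.0095. Without 1 unpooled batch 2 library Ago1 ran from -0.055 to 0.13, Ago4 from -0.79 to 0.033, Dgcr8 from -0.18 to 0.45 and Tnrc6b from -0.30 to 0.10.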

Other observations

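Over 22 sums of a library and a class with at least 50000 UMIs, the genes whose levels were most alike those of Ago1, by Spearman's rho of log2(CPM + 20) among 10782 genes, were Cd276 (0.882), which encodes the immune checkpoint ligand B7-H3, Cass4 (0.755) and Klra2 (0.747). For Ago2 they were Dcun1d1 (0.890), Gstcd (0.822) and Maml1 (0.814), which encodes a Notch coactivator. The sums share libraries, depth and batch, and these are descriptions with no test.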
